A study of Mus musculus with 16 samples.

Results

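A set of 10 genes that mark the resident macrophages of bone marrow was followed through RNA sequencing libraries labelled as sorted neutrophils: C1qa, C1qb, C1qc, Vcam1, Marco, Slamf8, Mrc1, Cd5l, Adgre1 and Axl. The set is a list of names chosen with earlier results of these data known, so its shared direction is not independent evidence. All members, 10 of 10, were found among the 49585 identifiers of each count table. The libraries came from the bones of C57BL/6 mice aged 8-12 weeks and were made from total RNA, with 4 libraries in each of 4 groups. P2KO carried floxed PHD2 with Vav:cre (Vav:cre-PHD2f/f), and P2WT were the wild type controls of that line. P2H2KO carried floxed PHD2 and HIF2 with Vav:cre (Vav:cre-PHD2/HIF2ff/ff), and P2H2WT were the wild type controls of that second line. Vav:cre is a recombinase driven by a promoter active in blood-forming cells, so that its targets are not limited to neutrophils. The labels do not say whether the wild type mice carried floxed alleles or the recombinase, nor whether each library came from a separate mouse, and p values therefore measure the spread between libraries.

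Marrow macrophages sit at the centre of erythroblastic islands, engulf the nuclei shed by red cell precursors and clear aged neutrophils that return to the marrow. Neutrophils are short-lived phagocytes made in the same marrow and are not known as a main source of C1q, CD5L or MARCO. PHD2, encoded by Egln1, is the oxygen sensor that marks HIF proteins for degradation, and HIF2, encoded by Epas1, is one of the transcription factors it controls. In a bulk library a lower level of a macrophage transcript can come from fewer macrophages or from less RNA per macrophage, and these cannot be told apart.

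The members fall into 3 roles. C1qa, C1qb and C1qc encode the chains of C1q, which starts the classical complement pathway and tags dying cells. They lie side by side on the minus strand of mouse chromosome 4 within 18675 bases of build GRCm38: C1qa at chr4:136895917-136898803, C1qc at chr4:136889804-136893065 and C1qb at chr4:136880129-136886187. Vcam1, Adgre1 and Slamf8 encode surface proteins of cell contact. Vcam1 (chr3:116109949-116129688) binds integrin alpha4 beta1 on erythroblasts, Adgre1 (chr17:57358691-57483527) is the F4/80 antigen, which eosinophils and monocytes also carry, and Slamf8 (chr1:172581758-172590568) is a SLAM family receptor of myeloid cells. Marco, Mrc1, Cd5l and Axl serve uptake. Marco (chr1:120474538-120505024) is a scavenger receptor for bacteria and particles, Mrc1 (chr2:14229392-14332057) is the mannose receptor CD206, Cd5l (chr3:87357881-87371073) is a secreted scavenger protein of tissue macrophages, and Axl (chr7:25757273-25788705) is a receptor kinase that recognises dying cells through GAS6. The exons of Vcam1 share 61 bases with a gene on the opposite strand, and the use of strand in the counting is not given in the sources used here.

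Promoter windows from RefSeq (GRCm38.p6), 250 bases before to 50 bases after the gene start, were found for 7 of the 10 members: C1qb, C1qc, Slamf8, Marco, Mrc1, Cd5l and Axl. The 250 bases before the start are shown for 4 of them, because these 4 represent the 3 roles and include the members that differed most between groups. Capitals mark a core bound by PU.1, the myeloid transcription factor (GAGGAA on either strand), in C1qb, Cd5l and Marco, and a core of the hypoxia response element (ACGTG or GCGTG, either strand) in Slamf8. They are C1qb at chr4:136886201-136886450 (minus strand), Cd5l at chr3:87357631-87357880 (plus strand), Marco at chr1:120505025-120505274 (minus strand) and Slamf8 at chr1:172590569-172590818 (minus strand).
C1qb: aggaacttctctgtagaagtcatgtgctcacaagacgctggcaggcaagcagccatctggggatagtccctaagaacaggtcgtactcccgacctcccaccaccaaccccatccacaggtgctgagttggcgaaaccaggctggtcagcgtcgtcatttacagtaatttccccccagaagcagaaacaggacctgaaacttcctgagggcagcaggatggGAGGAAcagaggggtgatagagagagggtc
Cd5l: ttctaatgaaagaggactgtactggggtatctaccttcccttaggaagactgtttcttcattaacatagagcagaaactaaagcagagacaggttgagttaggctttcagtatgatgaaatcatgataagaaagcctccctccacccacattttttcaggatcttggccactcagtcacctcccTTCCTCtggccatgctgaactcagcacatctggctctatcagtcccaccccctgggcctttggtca
Marco: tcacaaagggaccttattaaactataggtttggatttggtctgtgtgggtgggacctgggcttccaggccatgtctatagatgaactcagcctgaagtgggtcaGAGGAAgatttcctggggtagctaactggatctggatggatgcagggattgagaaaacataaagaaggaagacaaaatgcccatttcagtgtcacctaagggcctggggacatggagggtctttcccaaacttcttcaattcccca
Slamf8: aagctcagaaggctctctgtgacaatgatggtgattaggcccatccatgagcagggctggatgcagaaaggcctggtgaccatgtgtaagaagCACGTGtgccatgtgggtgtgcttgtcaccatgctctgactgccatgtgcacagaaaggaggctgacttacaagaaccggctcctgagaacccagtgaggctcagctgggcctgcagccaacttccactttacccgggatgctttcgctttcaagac

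GAGGAA was found on either strand in 7 of the 7 member windows, against 28.3% of 32851 promoter windows of the same length. Relative to the gene start it began at position -30 in C1qb, -66 in Cd5l and -146 in Marco, whereas in Slamf8 it lay at position 20, outside the stretch shown. ACGTG or GCGTG was found in 1 of the 7 windows, that of Slamf8, against 43.8% of all windows. The Slamf8 match is the palindrome CACGTG, which counts on both strands at positions -157 and -156 and overlaps itself. TGCTGAC, a recognition site of MAF proteins, was found in 0 of the 7 windows, against 4.67% of all windows. These matches describe letters in a window and are not sites of binding.

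The libraries held between 23450746 and 28601284 counts, of which the 10 members took 16480 to 35232, or 0.0612% to 0.127%. Levels are given as CPM, a count expressed relative to the library size after TMM scaling. The summed level of 13 neutrophil genes lay between 32740 and 83720 CPM and that of 11 erythroid genes between 26370 and 53760 CPM, so transcripts of red cell precursors were abundant in libraries labelled as neutrophils. Counts over whole genes did not check the genotypes, since they cannot resolve a deleted exon: P2KO averaged 49.5 ± 6.40 CPM of Egln1 (SD, n = 4) and its controls 48.7 ± 2.21 CPM, while P2H2KO averaged 53.2 ± 4.39 CPM and its controls 52.2 ± 2.97 CPM. For Epas1 the P2H2KO mean was 5.65 ± 2.17 CPM, beside 3.56 ± 1.02 CPM in the controls. P2KO replicate 9 stood apart, with the lowest neutrophil sum (32740 CPM) and the lowest monocyte sum (3770 CPM) of all 16 libraries. It also had the highest eosinophil (5723 CPM), megakaryocyte (252 CPM, the next library at 133) and endothelial sums (252 CPM, the next at 151). Its title ended in the suffix f and those of P2KO replicates 1, 5 and 6 in m, while P2WT held both suffixes. Results are given with and without replicate 9 where it bears on them.

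Per kilobase of exon, C1qa and C1qb were the most abundant members in all 4 groups and Slamf8 and Marco the least. In P2WT, C1qa stood at 87.9 ± 10.5 CPM per kilobase (SD, n = 4) and C1qb at 83.6 ± 10.7, and their libraries overlapped. C1qc followed at 49.5 ± 4.72, Axl at 42.6 ± 2.95, Adgre1 at 40.0 ± 4.98 and Vcam1 at 37.1 ± 2.85 CPM per kilobase. Cd5l (29.6 ± 4.64) and Mrc1 (22.3 ± 2.01) overlapped with each other, and below them Slamf8 (2.35 ± 0.377) and Marco (0.657 ± 0.162) were separated without overlap. In the P2H2 line Adgre1 ranked above C1qc, at 43.2 ± 5.52 against 41.4 ± 4.77 CPM per kilobase in P2H2WT, with overlapping libraries. Adjacent members from the third to the sixth place overlapped in all groups, except C1qc and Axl in P2WT. Apart from that pair, neighbours within these places did not differ beyond the spread of the libraries.

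**Figure D1:**
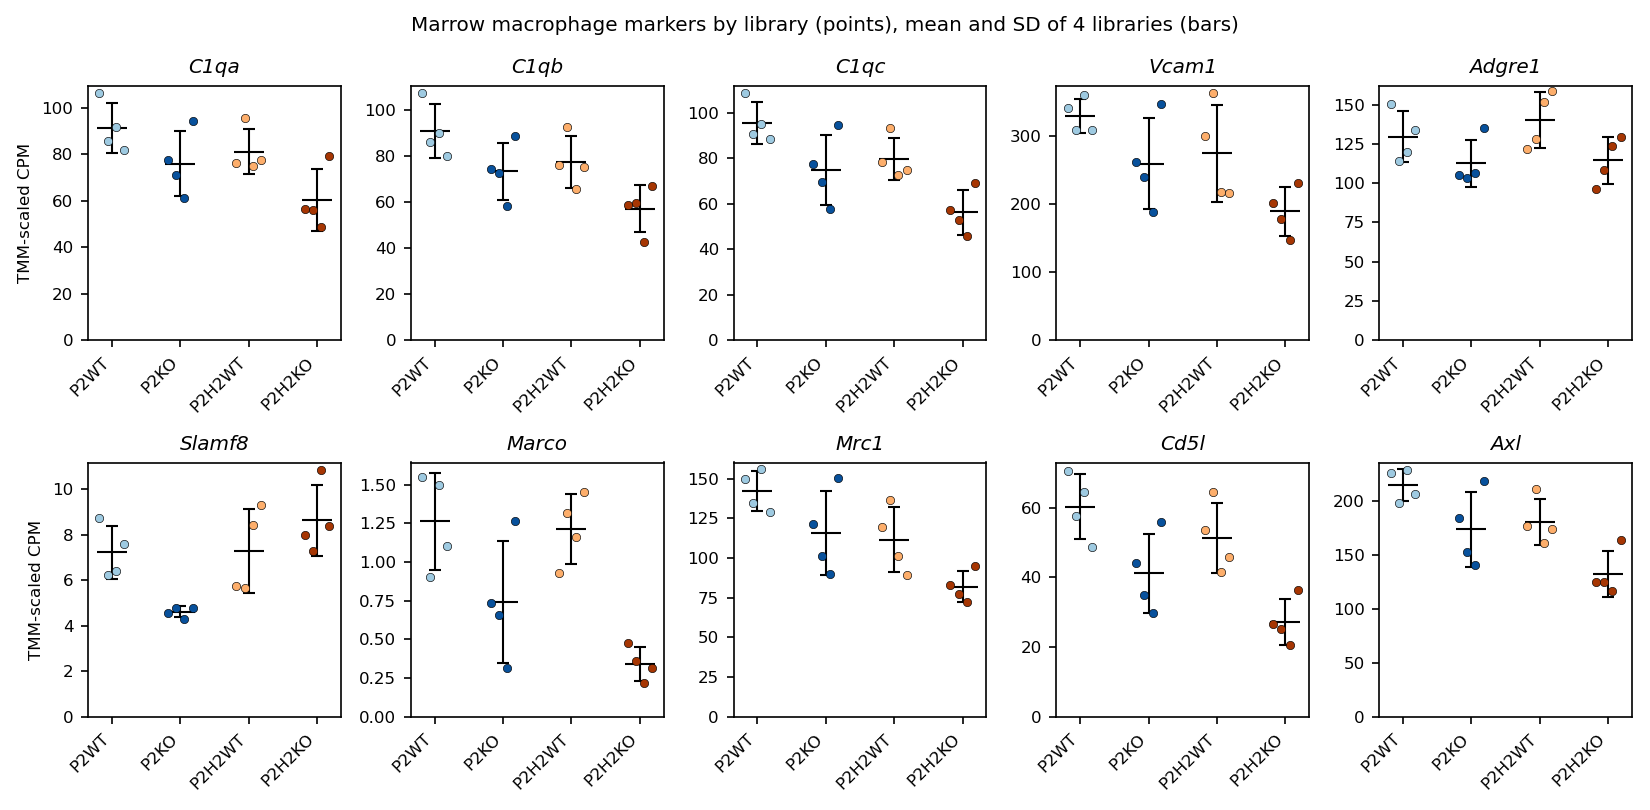
Level of each member in TMM-scaled CPM (y axis, from 0) in each of the 16 libraries, as points by group, with the mean and SD of 4 libraries as bars and 1 panel per gene. Marco lies lowest, between 0.216 and 1.55 CPM, and its 4 P2H2KO libraries (0.216 to 0.476 CPM) all lie below the 4 P2H2WT libraries (0.931 to 1.45 CPM).

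The summed level of the 10 members ran from 737 to 1190 CPM in P2KO (932 ± 193, SD, n = 4) and from 1083 to 1270 CPM in P2WT (1163 ± 94.1). It ran from 628 to 880 CPM in P2H2KO (728 ± 107) and from 896 to 1191 CPM in P2H2WT (1005 ± 133). In the P2H2 line the ranges did not touch, whereas in the P2 line the highest P2KO library, replicate 9, at 1190 CPM, lay above the lower pair of controls (1083 and 1084 CPM) and below the others. All 10 members passed the filter on low counts in every main fit.

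In P2KO against P2WT, where PHD2 alone was labelled as deleted, all 10 members had a lower fitted level in P2KO, with a median log2 fold change of -0.32 against 0.020 over the 13734 genes tested. A log2 fold change below 0 was found for 42.2% of all genes tested. No member passed an adjusted p of 0.05 in edgeR's quasi-likelihood test, and 0.0437% of all genes did, all of them higher. At an unadjusted p of 0.05, 3 of 10 members were lower (C1qc, Slamf8 and Cd5l), and 3.49% of all genes passed in either direction. In DESeq2 Slamf8 was the 1 member called (adjusted p 0.0146), against 0.149% of all genes.

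Slamf8 had the clearest difference in the P2 line. It was at 4.56, 4.799, 4.31 and 4.799 CPM in P2KO replicates 1, 5, 6 and 9 and at 8.72, 6.24, 6.39 and 7.59 CPM in P2WT replicates 10, 3, 4 and 7. All P2KO libraries lay below all P2WT libraries, which held for 1.39% of all genes in that direction, and Slamf8 was the only member without overlap. The log2 fold change was -0.64 (SE 0.13), with an adjusted p of 0.537 in edgeR and between 0.0146 and 1 over the alternatives. Genes of other cells lay lower as well in P2KO: 12 of 14 monocyte genes were below 0 (median -0.19, sums of 3770 to 5746 CPM against 5348 to 7167 CPM), 8 of 10 dendritic cell genes (589 to 672 against 607 to 757 CPM) and 8 of 8 T and NK cell genes (3 at an unadjusted p under 0.05, 46.3 to 68.4 against 65.7 to 73.7 CPM). Their part in the Slamf8 difference was not tested.

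The other 9 members shared another pattern in P2KO, in which 3 of 4 libraries lay below every control and replicate 9 did not. Cd5l was at 44.1, 35.1, 29.7 and 55.9 CPM in P2KO replicates 1, 5, 6 and 9 and at 70.5, 57.6, 64.7 and 48.6 CPM in P2WT replicates 10, 3, 4 and 7, for a log2 fold change of -0.54 (SE 0.19). C1qc was at 77.7, 69.5, 57.7 and 94.6 CPM in P2KO against 109, 90.5, 94.9 and 88.3 CPM in P2WT, for a log2 fold change of -0.34 (SE 0.14). The order of the P2KO libraries was the same for both. Vcam1 was at 262, 239, 188 and 347 CPM in P2KO against 341, 309, 359 and 308 CPM in P2WT. Marco had 20, 19, 8 and 33 counts in P2KO replicates 1, 5, 6 and 9 and 43, 24, 37 and 28 counts in P2WT replicates 10, 3, 4 and 7, for a log2 fold change of -0.75 (SE 0.37). The highest P2KO library was replicate 9 for each of the 9 genes. The remaining 5 had log2 fold changes between -0.30 (C1qb, SE 0.13) and -0.19 (Adgre1, SE 0.12), with C1qa from 61.3 to 94.4 CPM in P2KO and 81.7 to 107 CPM in P2WT. Mrc1 ran from 89.6 to 150.2 CPM in P2KO and 129 to 156 CPM in P2WT, and Axl from 141 to 218 CPM against 198 to 228 CPM. Without replicate 9, a count added after the values were seen, 10 of 10 members lay below all controls, against 3.06% of all genes. The same omission brought 10 of 10 members to an unadjusted p under 0.05 and the median log2 fold change to -0.46, and none passed after adjustment. It left only P2KO libraries with the title suffix m, beside controls with both suffixes. With all libraries kept and the suffix as a covariate, the median was -0.27 and 3 members had an unadjusted p under 0.05 in edgeR. Omission of P2KO replicate 6, which had the lowest member sum (737 CPM), moved the median to -0.21, with 2 members at an unadjusted p under 0.05. Omission of P2KO replicate 5 or P2WT replicate 10 left 1. With all libraries kept and no covariate, 3.49% of all genes had such a p in edgeR, in either direction. That share is not given here for the fits with a library omitted or with the covariate, so these member counts stand without it.

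**Figure D2:**
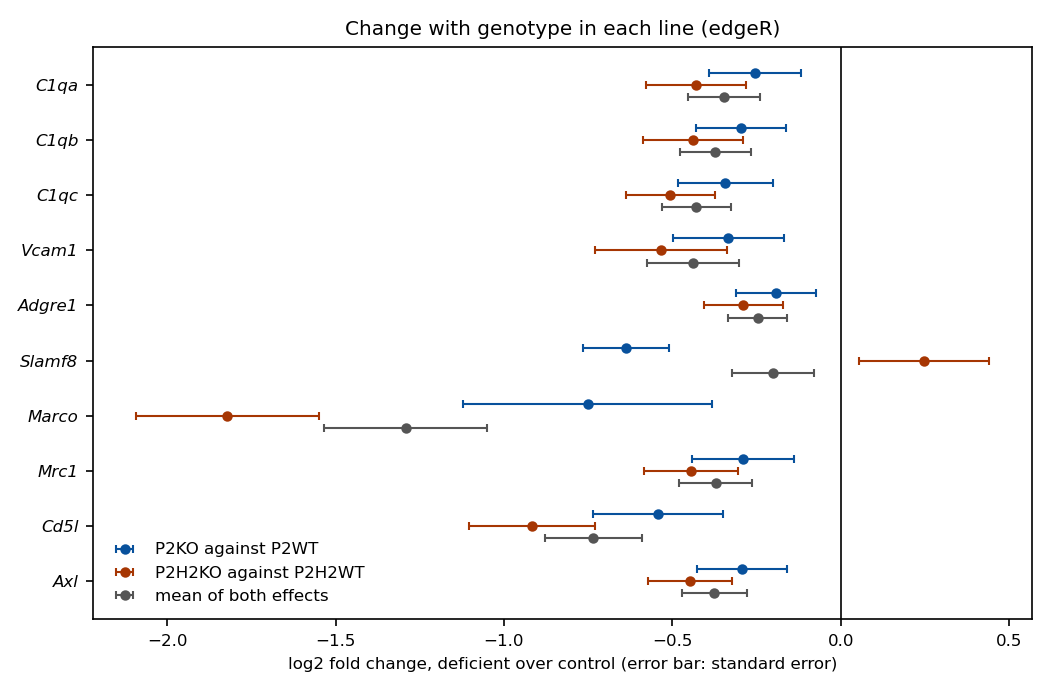
Log2 fold change of each member against its own controls with its standard error, from edgeR (x axis in log2 units), for P2KO (blue), P2H2KO (red) and the mean of both effects (grey). In the P2 line the values run from -0.75 (Marco) to -0.19 (Adgre1), and in the P2H2 line from -1.82 (Marco) to 0.25 (Slamf8), the only member above 0.

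In P2H2KO against P2H2WT, where both PHD2 and HIF2 were labelled as deleted, 9 of 10 members had a lower fitted level and Slamf8 a higher one. The median log2 fold change was -0.45 against 0.0011 over the 13435 genes tested, of which 49.5% were below 0. No member passed an adjusted p of 0.05 in edgeR, where 0.0744% of all genes did, all of them higher. All 9 lower members had an unadjusted p under 0.05, which 2.63% of all genes had in either direction. DESeq2 called Marco (adjusted p 0.000831) and Cd5l (adjusted p 0.00252), against 0.245% of all genes. Across both lines, 9 members were below 0 in each (19.0% of all genes) and 2, C1qc and Cd5l, were also lower at an unadjusted p under 0.05 in each (0.165%).

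Marco, the scavenger receptor, had the largest difference of the members. It had 11, 9, 6 and 7 counts in P2H2KO replicates 11, 12, 15 and 17 and 26, 33, 30 and 36 counts in P2H2WT replicates 13, 14, 16 and 18. These came to 0.343 and 1.22 CPM on average, a log2 fold change of -1.82 (SE 0.27), with an adjusted p of 0.0965 in edgeR and a range of 0.000831 to 0.356 over the alternatives. The counts are small, yet all 4 P2H2KO libraries lay below all 4 controls. In edgeR Marco passed the threshold when no filter on low counts was used (adjusted p 0.0399). It also passed when a split of the title numbers into a lower part (up to 14) and an upper part entered as a covariate (adjusted p 0.0413).

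Cd5l was at 26.7, 25.2, 20.7 and 36.4 CPM in P2H2KO replicates 11, 12, 15 and 17 and at 53.6, 64.4, 41.6 and 45.8 CPM in P2H2WT replicates 13, 14, 16 and 18. The highest deficient library stayed under the lowest control, with a log2 fold change of -0.92 (SE 0.19) and an adjusted p of 0.412 in edgeR. C1qc was at 57.2, 52.8, 45.8 and 69.2 CPM in P2H2KO against 78.4, 93.3, 72.8 and 75.1 CPM in P2H2WT, again without overlap, with a log2 fold change of -0.51 (SE 0.13). Marco, Cd5l and C1qc were the 3 members without overlap, all lower, against 0.811% of all genes. C1qa (log2 fold change -0.43, SE 0.15) and C1qb (-0.44, SE 0.15) overlapped with their controls only through P2H2KO replicate 17, as did Vcam1 (-0.53, SE 0.20), Mrc1 (-0.44, SE 0.14) and Axl (-0.45, SE 0.13). Mrc1 ran from 72.6 to 94.9 CPM in P2H2KO and 89.4 to 136 CPM in P2H2WT, and Axl from 116 to 164 CPM against 161 to 211 CPM. Without P2H2KO replicate 17, a count added after the values were seen, 8 of 10 members lay below all controls, against 1.79% of all genes. On CPM without TMM factors, 6 members did not overlap with all libraries kept, against 0.744% of all genes on that scale.

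Vcam1, the partner of erythroblast integrins, spread widely among the P2H2WT controls. It was at 202, 179, 147 and 231 CPM in P2H2KO replicates 11, 12, 15 and 17 and at 300.2, 362, 218 and 217 CPM in P2H2WT replicates 13, 14, 16 and 18. Its adhesion partners and island molecules, a list of 12 genes with the integrins Itga4 and Itgb1 and the erythroblast-macrophage protein Maea, had 0 genes at an unadjusted p under 0.05 in either line. Adgre1 was at 96.6, 109, 124 and 129 CPM in P2H2KO against 122, 128, 152 and 159 CPM in P2H2WT, for a log2 fold change of -0.29 (SE 0.12). It had the smallest difference of the 9 lower members in either line, -0.19 (SE 0.12) in P2KO. The erythroid sum also differed in range, from 26440 to 50070 CPM in P2H2KO and from 38040 to 53760 CPM in P2H2WT, with all 11 genes tested below 0 in that line and above 0 in the P2 line. In P2H2KO 8 of 8 B cell genes were below 0 (median -0.34, sums of 843 to 1558 CPM against 1234 to 1991 CPM) and 13 of 13 neutrophil genes above 0 (median 0.19, sums of 44860 to 83720 CPM against 46580 to 70340 CPM). The part of these lists in the member differences was not tested.

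Slamf8 in the P2H2 line was at 8.01, 7.29, 10.9 and 8.39 CPM in P2H2KO replicates 11, 12, 15 and 17 and at 5.76, 5.66, 8.44 and 9.29 CPM in P2H2WT replicates 13, 14, 16 and 18. The groups overlapped and the log2 fold change was 0.25 (SE 0.19), with an unadjusted p of 0.231 in edgeR. With the lower or upper part of the title numbers as a covariate, Slamf8 was 0.27 higher (SE 0.11), with an unadjusted p of 0.0423 and an adjusted p of 0.970. The difference of the effects, P2 line minus P2H2 line, was -0.89 (SE 0.24) for Slamf8, with an unadjusted p of 0.0022 and an adjusted p of 0.9995. For Marco the difference of the effects was 1.06 (SE 0.49), with an unadjusted p of 0.045. These were the only 2 members at an unadjusted p under 0.05 in that test, against 1.51% of all genes, and no gene passed after adjustment in edgeR or DESeq2 (0.00% in each). For the other 8 members the difference ran from 0.086 (Adgre1) to 0.37 (Cd5l), with standard errors of 0.17 to 0.29.

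**Figure D3:**
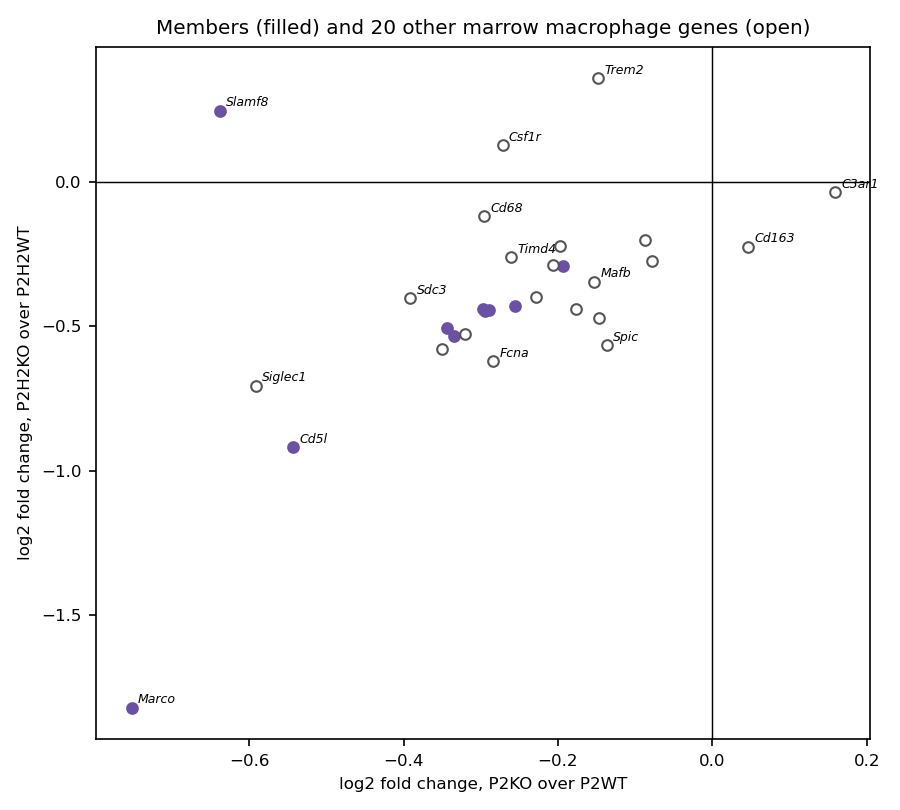
Log2 fold change in the P2 line (x axis) against that in the P2H2 line (y axis) for the 10 members (filled) and 20 other marrow macrophage genes (open), 1 point per gene, with crowded genes left unlabelled. Most points lie below 0 on both axes. Marco lies lowest (-1.82 on the y axis) and Slamf8 lies left (-0.64 on the x axis) and above 0 on the y axis.

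Averaged over the lines, each against its own controls, 9 of 10 members had an unadjusted p under 0.05 and all 10 were below 0, with a median log2 fold change of -0.37 against 0.0029 over all 14080 genes. A log2 fold change below 0 was found for 48.1% of all genes, and an unadjusted p under 0.05 in either direction for 3.72%. Marco fell, with a log2 fold change of -1.29 (SE 0.24) and an adjusted p of 0.0480 in edgeR, one of 4 genes called lower (0.0284% of all genes, of 0.170% called in either direction). Its level was lower than every control in 7 of 8 deficient libraries. The call was close to the threshold: the adjusted p ran from 0.000406 to 0.125 over the alternatives, and 13 of 16 fits without a single library lost it. Upper-quartile factors (0.0501), the suffix of the titles (0.0536) and the lower or upper part of the title numbers (0.0627) lost it as well. Cd5l was next, at -0.73 (SE 0.14) and an adjusted p of 0.0621, and it passed without P2KO replicate 9 (adjusted p 0.0216) or P2H2KO replicate 17 (adjusted p 0.0253). C1qc (-0.43, SE 0.10, adjusted p 0.193) and Axl (-0.38, SE 0.096, adjusted p 0.279) did not pass in edgeR, whereas DESeq2 called both, with Marco and Cd5l (0.406% of all genes).

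Between the wild type groups, P2WT against P2H2WT, line, table and title number cannot be told apart. No member passed an adjusted p of 0.05, where 0.227% of all genes did. Mrc1 alone had an unadjusted p under 0.05, at 142 ± 12.8 against 112 ± 20.6 CPM (SD, n = 4), for a log2 fold change of 0.35 (SE 0.15). A higher level was found in 6.94% of all genes at that threshold, and the median over the members was 0.23. Markers of other cells moved more in this comparison: 10 of 10 endothelial genes were above 0 (8 at an unadjusted p under 0.05, median 1.42) and 10 of 10 stroma genes (10 at that p, median 1.21). The endothelial sum was 123 to 151 CPM in P2WT and 84.5 to 95 CPM in P2H2WT, and the stroma sum 468 to 1270 against 178 to 305 CPM. Their part in the member values was not tested.

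Expressed per 100 summed counts of the C1q genes, a ratio chosen after the values were seen and given with no test, Vcam1, Mrc1 and Axl stood close to their proportion in the controls, with ratios of means between 0.958 and 1.02 over both lines. The C1q genes form the denominator and are left out. The ratio of means for Adgre1 was 1.09 in the P2 line and 1.13 in the P2H2 line, with overlap in each. With the SD over 4 libraries, Vcam1 stood at 109 ± 5.18 in P2H2KO and 114 ± 18.04 in P2H2WT, and Mrc1 at 47.7 ± 3.76 and 46.7 ± 5.30. Axl stood at 76.6 ± 5.47 in P2H2KO and 75.7 ± 0.775 in P2H2WT. Cd5l and Marco departed from this. Cd5l was at 15.5, 14.9, 15.1 and 16.9 per 100 C1q counts in P2H2KO and at 23.2, 22.9, 19.5 and 20.1 in P2H2WT, with no overlap, and in the P2 line at 16.4 to 20.1 in P2KO and 19.4 to 23.4 in P2WT, with overlap. Marco was at 0.276, 0.215, 0.157 and 0.146 per 100 C1q counts in P2H2KO against 0.403, 0.467, 0.544 and 0.638 in P2H2WT, with no overlap. In the P2 line Marco ran from 0.178 to 0.456 in P2KO and from 0.344 to 0.541 in P2WT, with overlap. The share of all genes without overlap on this scale is not given here. Slamf8 was 1.66 times as high per C1q count in P2H2KO as in its controls, with overlap, and 0.81 times as high in P2KO.

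**Figure D4:**
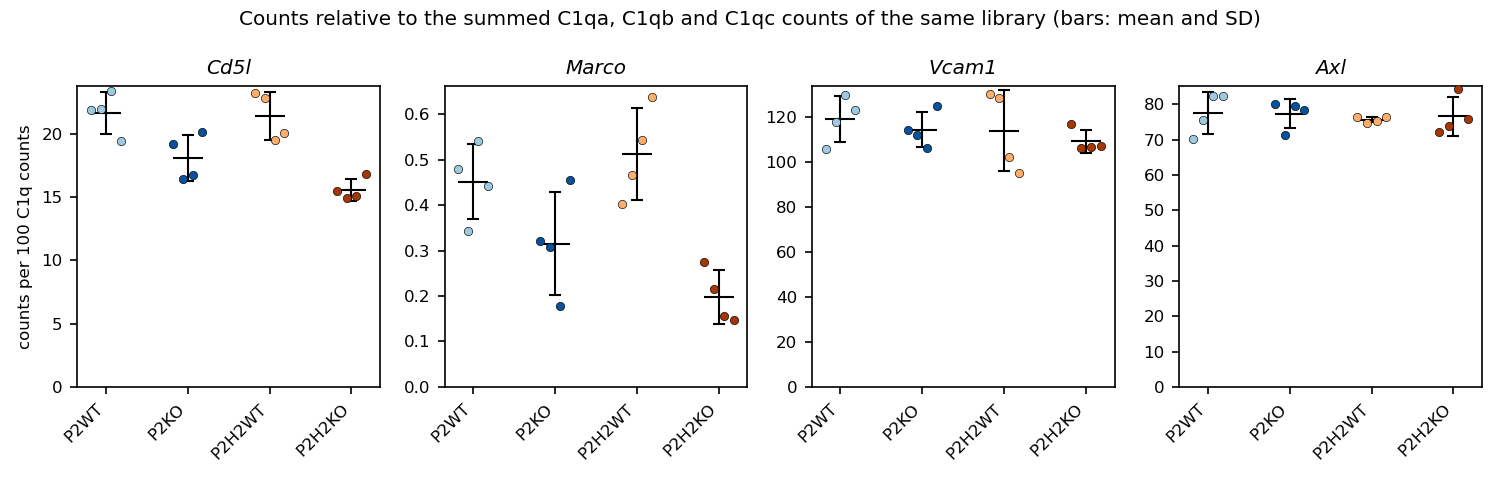
Counts of Cd5l, Marco, Vcam1 and Axl per 100 summed C1q counts in each library (points by group, y axis from 0), with the mean and SD of 4 libraries as bars. A factor common to a gene and C1q cancels in this ratio. Cd5l and Marco lie lower in P2H2KO than in P2H2WT without overlap, at 14.9 to 16.9 against 19.5 to 23.2 and at 0.146 to 0.276 against 0.403 to 0.638. In the P2 line the groups overlap for both genes.

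Within groups the members varied together from library to library. On log2 CPM with the group mean subtracted, over 16 libraries, 21 pairs among C1qa, C1qb, C1qc, Cd5l, Mrc1, Vcam1 and Axl had Pearson r between 0.79 and 0.97 with a median of 0.92 (median rho 0.90). Without the 2 libraries farthest from the median, the median was 0.89. All points share a library and its depth, so these values describe the libraries. Marco was looser, with a median r of 0.63 to the other members, and its counts were the lowest. Adgre1 (median r 0.29) and Slamf8 (median r -0.18) had the lowest medians and were closer to each other, at r 0.74. For these 3 genes the values depended on the line and on single libraries. In the P2 line the medians were 0.93 for Marco, 0.65 for Adgre1 and 0.44 for Slamf8, and in the P2H2 line 0.19, -0.21 and -0.57. Without the 2 farthest libraries they were 0.73, 0.17 and 0.28 in the P2 line and -0.022, -0.24 and -0.43 in the P2H2 line. Over all 45 pairs the P2 line had a median of 0.91 and 0.69 without the 2 farthest libraries, and in the P2H2 line it was 0.53.

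**Figure D5:**
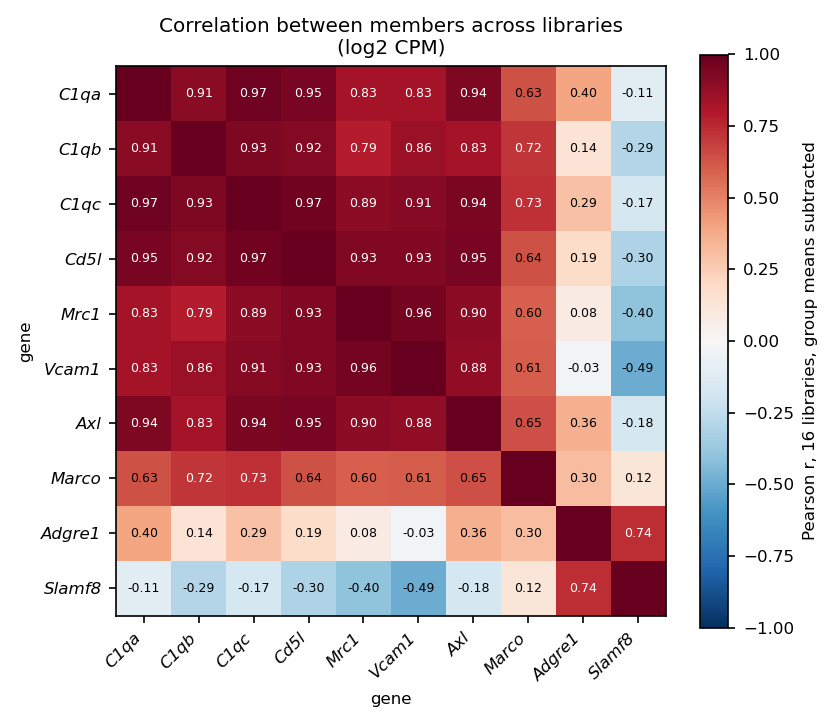
Pearson correlation between each pair of members over 16 libraries, after subtraction of the group mean (colour scale from -1 to 1). A block of 7 genes lies between 0.79 and 0.97, and Adgre1 and Slamf8, which reach 0.74 with each other, lie outside it.

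Markers of other cells moved with the members. The summed monocyte level correlated negatively with 8 members, from r -0.52 (Marco) to -0.82 (Vcam1), and positively with Adgre1 (0.37) and Slamf8 (0.69). Without the 2 libraries farthest from the median of the list, the 8 ran from -0.38 (C1qa) to -0.73 (Vcam1), with Adgre1 at 0.27 and Slamf8 at 0.53. The dendritic cell list correlated with Slamf8 at r 0.82, and at 0.73 without its 2 farthest libraries. The erythroid list correlated with the same 8 members at r 0.45 to 0.71 and with Adgre1 at -0.43 and Slamf8 at -0.53. For Slamf8 and Adgre1 the monocyte and erythroid values came mainly from the P2H2 line. There r with the monocyte list was 0.86 and 0.76, while it was 0.13 and -0.32 in the P2 line. Without the 2 libraries farthest from the median of the list, the erythroid values of the 8 members were 0.10 (C1qa) to 0.52 (Vcam1). The eosinophil list correlated with these 8 at r 0.63 (Vcam1) to 0.785 (C1qc), and at 0.41 (Mrc1) to 0.74 (C1qc) without its 2 farthest libraries. With the endothelial list r was 0.52 (C1qb) to 0.64 (Marco) for these 8, while rho was lower, at 0.31 (C1qa) to 0.47 (C1qb). Without its 2 farthest libraries r was 0.52 (Vcam1) to 0.70 (C1qc). P2H2KO replicate 15 had the highest monocyte sum (9852 CPM), the lowest member sum (628 CPM) and the highest Slamf8 level. The part of these cell contents in the differences between groups was not tested.

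The genes most like the members, by correlation with their mean log2 CPM over 16 libraries among 11276 genes with a mean of at least 1 CPM, were Mertk (r 0.93), Pld3 (0.90), Ubd (0.90), Kcnj10 (0.89), Fcna (0.89), Abca1 (0.89), Slc1a3 (0.88), Gnas (0.87), Ndrg2 (0.85) and Cmbl (0.85). Mertk is the receptor kinase related to Axl and Fcna a ficolin of macrophages. Not every macrophage gene followed the members. Csf1r (r -0.30), Cd68 (r -0.33) and Trem2 (r -0.50), named after their values were seen, correlated negatively. The rest of a list of 20 other marrow macrophage genes correlated positively. Kcnj10, a potassium channel, fell in the mean of the effects by 0.57 on the log2 scale (SE 0.096, adjusted p 0.0213 in edgeR). Slc1a3, a glutamate transporter, had a mean of the effects of -0.60 (SE 0.12, adjusted p 0.0743). Gnas and Ndrg2 had values of -0.035 and 0.0033, and the other 8 ran from -0.60 to -0.26, on both sides of the members' median of -0.37.

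Of 20 other genes of marrow macrophages, 18 had a log2 fold change below 0 in the P2 line, where 42.2% of all genes did. In the P2H2 line it was also 18, against 49.5% of all genes, but these were not all the same genes. The medians were -0.20 in the P2 line and -0.32 in the P2H2 line. At an unadjusted p of 0.05, 4 were lower for P2KO, 10 in the P2H2 line and 12 in the mean of the effects. Of all genes, 3.49%, 2.63% and 3.72% passed in either direction. Siglec1, the sialoadhesin of island macrophages, fell in the mean of the effects by 0.65 on the log2 scale (SE 0.11, adjusted p 0.0259 in edgeR). It averaged 45.7 ± 5.95 CPM in P2KO against 69.3 ± 8.94 CPM in P2WT, and 33.7 ± 8.81 CPM in P2H2KO against 54.9 ± 7.01 CPM in P2H2WT, with no overlap in either line. Of all genes, 1.39% were lower without overlap in the P2 line and 0.811% in the P2H2 line. After Siglec1, the smallest unadjusted p in the P2 line belonged to Cd68, a lysosomal protein (log2 fold change -0.30, p 0.0045, no overlap), Sdc3 (-0.39, p 0.0126) and Csf1r, which monocytes share (-0.27, p 0.0382), and each had an adjusted p of 1 in edgeR. Their log2 fold changes in the P2H2 line were -0.12, -0.40 and 0.13. The smallest after Siglec1 in the P2H2 line belonged to Nr1h3, encoding the nuclear receptor LXR alpha (-0.58, p 0.0066), the lysosomal protease Lgmn (-0.29, p 0.0085, no overlap) and Mertk (-0.53, p 0.0116), all with an adjusted p of 0.9999.

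The partners of the members were not called in either line. Among 19 tested complement genes 0 passed the adjusted threshold in either line, with medians of 0.025 and 0.10. C4b, the next component of the classical pathway, had a log2 fold change of 0.76 in the P2H2 line at an unadjusted p of 0.00137, and Lrp1, an uptake receptor, of -0.29 in the P2 line at an unadjusted p of 0.0097. The lists of dying cell uptake, scavenger and lectin receptors, SLAM family and adhesion receptors also had 0 genes called in either line and medians between -0.079 and 0.14. Of 18 uptake genes tested in the P2H2 line, 10 were above 0 and 2 were lower at an unadjusted p under 0.05 in edgeR. These were Abca1 (-0.37, p 0.0016, no overlap) and Mertk (-0.53, p 0.0116). Of all genes, 2.63% had such a p in either direction and 0.811% were lower without overlap. Among 8 osteoclast genes, 4 of 6 tested were higher at an unadjusted p of 0.05 in the P2 line and 0 of 4 in the P2H2 line. Of all genes, 3.49% and 2.63% passed in either direction. The osteoclast sums of the P2 line overlapped, at 209 to 237 CPM in P2KO and 165 to 214 CPM in P2WT. The osteoclast-defining Calcr had at most 2 counts in any library.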

How the data were processed

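The authors deposited 2 tables of raw counts, 1 per line, with 49585 gene identifiers and 8 libraries each, and no normalization is seen in the values. Counting used HTSeq on mm10, per the submitters' processing notes. The aligner, annotation release, use of strand and sorting gates are not given in the sources used here. Symbols and coordinates came from GENCODE M21, and 49326 identifiers had a symbol; the other 259 held 0.00714% of counts. Groups and replicate numbers came from the titles and descriptions.

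In edgeR 4.0.16, filterByExpr removed low genes, TMM scaled the libraries, and glmQLFit (robust) with glmQLFTest gave two-sided p values. The Benjamini-Hochberg adjustment covered every gene in a fit, with a threshold of 0.05. Each line was fitted on its own 8 libraries, and the difference of the effects, their mean and the wild type comparison on all 16. CPM was computed from the deposited counts. Correlations used log2 CPM with a prior count of 2. Alternatives were DESeq2 1.42.0, scaling by RLE or upper quartile, tests with no filter or with a minimum of 10 counts per library, and each library left out. The title suffix (m or f) and the part of the title number (lower or upper) were each used as a covariate. The lower part held numbers up to 5 in the P2 line and up to 14 in the P2H2 line, and the upper part the higher numbers. The pipeline was tested on simulated data. The members and lists were chosen with earlier results of these data known. All members are named. From other lists up to 4 genes are named per comparison, those with the smallest p and those that define the cell type, beside the 10 genes most like the members. The smallest chi-square per degree of freedom over 24 pairs of libraries within groups was 11.5, so all pairs differed by more than sampling noise.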

Additional observations from a re-analysis of the deposited data

Results flagged for a closer look

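In 40 groups of 4 libraries, 1 for each member and group, 2 held a library far from the other 3 by Dixon's criterion, which chance meets in about 1 group in 20. C1qa in P2H2WT replicate 14 was at 95.8 CPM, with the others between 75.0 and 77.7 CPM. Adgre1 in P2KO replicate 9 was at 135.0 CPM, with the others between 103 and 107 CPM.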

How the results depend on the processing

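No paired analysis was possible because the replicate numbers of the titles are not shared between groups. The limits are 4 libraries per group, few counts of Marco, and a cell content that differs between libraries. DESeq2 moved the members called to 1 for P2KO, 2 for P2H2KO and 4 for the mean of the effects, the members at an unadjusted p under 0.05 in the P2 line to 6, and all genes called to 24, 39, 63 and, between wild types, 268. Members at an unadjusted p under 0.05 in the P2 line numbered 5 with RLE factors, 5 in the fit of 16 libraries (10 genes called) and 6 without a filter. Without a filter 1 member was called in the P2H2 line and 9 genes between wild types. With at least 10 counts in every library, where Marco is not tested, 0 members were called in the mean of the effects, 1 had an unadjusted p under 0.05 for the difference and 0 genes were called between wild types. Upper-quartile factors left 0 members called in the mean of the effects and 0 at an unadjusted p between wild types. The title suffix left 0 members called in the mean and 124 genes between wild types. The lower or upper part of the title number gave 1 member and 28 genes called in the P2H2 line and 1 member at an unadjusted p for the difference. It gave 0 members called in the mean, and 0 members and 9 genes between wild types. On CPM without factors 6 members did not overlap in the P2H2 line (0.744% of all genes). The cause was not tested.

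Leaving out each library gave, in the P2 line, 0 members called, 1 to 10 at an unadjusted p under 0.05, 4 to 6 genes called, a median of -0.46 to -0.21 and 1 to 10 members without overlap. In the P2H2 line it gave 0, 7 to 9, 6 to 9, -0.58 to -0.36 and 3 to 8. For the difference it gave 0, 1 to 2, 0 and 0.018 to 0.25; for the mean 0 to 2, 9 to 10, 15 to 30 and -0.44 to -0.33; between wild types 0, 0 to 4, 0 to 182 (182 without P2KO replicate 9) and 0.14 to 0.33. Fewer libraries also left more of all genes lower without overlap. The share was 3.06% without P2KO replicate 9, against 1.39% with all libraries kept. In the P2H2 line it was 1.79% without P2H2KO replicate 17, against 0.811%. Shares of all genes at an unadjusted p under 0.05 are not given here for the alternative fits or those with a library left out. Between wild types Slamf8 turned from -0.0088 to 0.17 and Marco from 0.059 to -0.072 with the part of the title number as a covariate. Left-out libraries turned the sign of the difference for Adgre1 (-0.015) and Mrc1 (-0.0070), and between wild types for Slamf8 (-0.11 to 0.13) and Marco (-0.057 to 0.18). Of the single member values, 968 kept direction and side of the threshold, 10 passed it newly, 16 lost it and 11 reversed.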
